A study of Sus scrofa with 8 samples.

Results

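FOS, FOSL1, NR4A2, NR4A3 and KLF4 are immediate early transcription factors, and their RNA was measured here in heart muscle of pigs after myocardial infarction. The genes were selected on their measured difference between high-dose and untreated animals, with the other values of these arrays also known, so their levels are given as a description. All probe sets whose annotation names one of these symbols alone were taken. That gave 5 genes on 8 probe sets, of 6765 genes on 10069 probe sets with a single symbol. FOS, NR4A2 and KLF4 had 1 probe set each, NR4A3 had 2 and FOSL1 had 3, and sets of a gene are numbered from the brightest down.

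Immediate early genes are transcribed within minutes of a stimulus, without new protein synthesis, and their RNAs are short-lived. In heart muscle they are known to answer growth factors, stretch, adrenergic stimulation and ischaemia. FOS and FOSL1 encode partners that pair with JUN proteins to form AP-1, a DNA-binding factor. NR4A2 and NR4A3 encode orphan nuclear receptors, whose activity is set mainly by how much of them is made, and KLF4 encodes a zinc-finger factor known in vascular, epithelial and stem cells.

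The study asked what infusion of GGF2 did to gene expression away from the scar. GGF2 (glial growth factor 2) is a secreted form of neuregulin-1 that signals through ERBB receptors. Every animal was a castrated male Yorkshire pig aged under 1 year, from a set with a mean weight of 54.5 kg, and every animal had an infarct, the controls included. Left ventricle remote from the infarct was taken from 3 untreated animals, 3 low-dose animals, which received infusions of 0.67 mg/kg, and 2 high-dose animals, which received infusions of 2.0 mg/kg. Treatment at either dose lasted 4 weeks. The labels do not say how long after the last infusion the tissue was taken. Each animal has 1 array, so all p-values rest on the spread between animals, which includes any spread between arrays. The limma fit behind them also draws each probe set's spread towards that of all probe sets. For genes of large spread this gives a smaller SE than their own spread alone.

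Values are RMA levels on the log2 scale, on which a difference of 1 is a doubling. Correlations between arrays over all probe sets lay between 0.985 and 0.994 within groups and between 0.981 and 0.992 between groups. The 10 measured cardiomyocyte markers of 12 listed, such as troponin and myosin genes, had a mean level of 13.7 to 13.9 in untreated, 13.7 to 13.9 in low-dose and 13.8 to 13.9 in high-dose animals, near the highest value on any array (15.01). Every level of the 8 probe sets described here lay above the arrays' lower quartiles (3.72 to 3.80), which were taken as the limit of background.

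FOS was high in both high-dose animals and varied widely in the other 6. Its RMA level was 9.03, 10.81 and 9.59 in untreated animals, 10.26, 7.81 and 9.11 in low-dose animals and 12.25 and 12.05 in high-dose animals. Untreated and low-dose values were interleaved, and both high-dose values stood above all of them. The group means were 9.81 ± 0.91 (SD, n = 3), 9.06 ± 1.23 (n = 3) and 12.15 ± 0.14 (n = 2). The order of the means was thus low dose, untreated, high dose, and low dose and untreated did not differ beyond their spread. High dose minus untreated was 2.34 ± 0.68 (moderated SE), a 5.05-fold difference. FOS was also the gene with the widest gap between the doses, 3.09 ± 0.68 for high minus low dose, or 8.50-fold.

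FOSL1, a Fos-family partner of JUN proteins, showed the same arrangement on its brightest probe set. The levels were 5.36, 6.73 and 5.61 in untreated animals, 6.89, 5.32 and 6.00 in low-dose animals and 7.50 and 7.34 in high-dose animals. Low-dose replicate 1 and untreated replicate 2 came nearest to the high-dose animals but did not reach them. The means were 5.90 ± 0.73, 6.07 ± 0.79 and 7.42 ± 0.11 in the same order of groups (SD), and high dose minus untreated was 1.52 ± 0.49 (SE).

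The dimmer FOSL1 probe sets differed from the bright one. On the second the means were 5.52 ± 0.22 in untreated, 5.56 ± 0.24 in low-dose and 5.91 ± 0.04 in high-dose animals (SD), and high dose minus untreated was 0.38 ± 0.17 (SE). On the third, with means of 4.43, 4.37 and 4.39, the difference was -0.04 ± 0.17 and the groups overlapped. The third set's mean level over all arrays, 4.40, was below the median of every array (5.34 to 5.39). Whether its weak signal hid a difference was not tested. The size of the FOSL1 difference thus depended on the probe set, and no sequence was used here that could say which part of the transcript each set detects.

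NR4A2 had the largest high-dose difference among the brightest probe sets of the 5 genes. Its levels were 6.26, 7.48 and 6.08 in untreated animals, 7.71, 5.75 and 7.92 in low-dose animals and 10.38 and 9.47 in high-dose animals. The lower high-dose animal was 1.55 above the highest of the other 6, which was low-dose replicate 3. The means were 6.61 ± 0.76, 7.13 ± 1.19 and 9.92 ± 0.64 (SD), so high dose minus untreated was 3.31 ± 0.67 (SE), a 9.95-fold difference. Untreated and low-dose animals again overlapped.

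NR4A3 varied most between animals of one group. On its brightest probe set the levels were 10.06, 12.30 and 8.62 in untreated animals, 12.34, 10.49 and 11.55 in low-dose animals and 13.07 and 12.81 in high-dose animals. The untreated animals alone spanned 3.68, which is wider than the difference between the means of the high-dose and untreated groups, 2.62 ± 0.93 (SE). The high-dose animals still lay above all others, by 0.47. The means were 10.33 ± 1.86, 11.46 ± 0.93 and 12.94 ± 0.18 (SD).

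The second NR4A3 probe set gave the animals nearly the same order at a lower level. It read 5.52, 7.91 and 4.61 in untreated animals, 7.72, 6.09 and 7.03 in low-dose animals and 9.90 and 9.49 in high-dose animals. High dose minus untreated was 3.68 ± 0.85 (SE), a 12.8-fold difference and the largest of all 8 probe sets. Low-dose replicate 1 and untreated replicate 2 exchanged places between the NR4A3 sets, as the only change in the order.

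KLF4 had the smallest within-group SD, pooled over all groups, among the brightest sets of the 5 genes. The levels were 9.02, 9.84 and 8.94 in untreated animals, 10.10, 8.92 and 9.96 in low-dose animals and 11.02 and 10.54 in high-dose animals. The means were 9.26 ± 0.50, 9.66 ± 0.65 and 10.78 ± 0.34 (SD), and high dose minus untreated was 1.52 ± 0.39 (SE), a 2.86-fold difference. Both high-dose animals lay above the other 6, by 0.44, and low-dose and untreated animals overlapped.

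**Figure D1:**
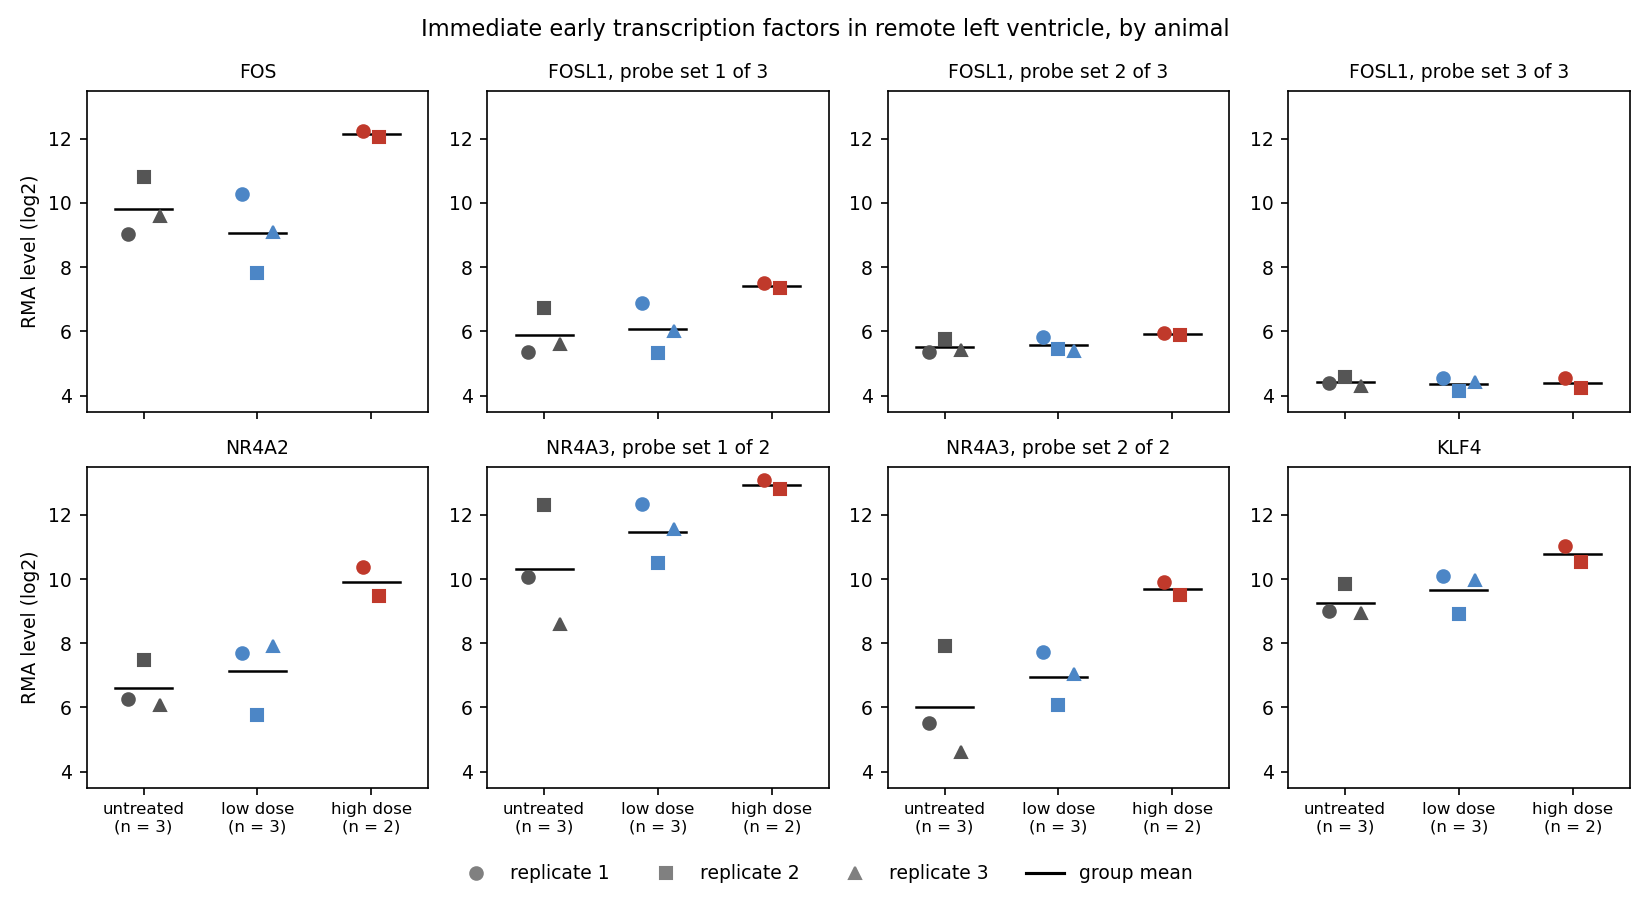
RMA level (log2, vertical axis) of each animal on the 8 probe sets of FOS, FOSL1, NR4A2, NR4A3 and KLF4, by group; point shapes mark the replicate number and bars the group mean. In 7 of the 8 panels both high-dose points lie above all 6 others, with FOSL1 probe set 3 as the exception.

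Counted over the probe sets, both high-dose animals lay above all 6 others on 7 of 8, and on 5 of 5 when each gene is taken by its brightest set. Of all 23999 probe sets, 6.52% had that arrangement. For high dose against untreated, 7 of the 8 had a higher mean (53.3% of all probe sets), 6 were higher by at least 1 (0.704%) and 7 did not overlap (14.7%). By limma, none of the 8 had a Benjamini-Hochberg adjusted p under 0.05, nor did any probe set on the array (0%), and the smallest adjusted p among the 8 was 0.26, for NR4A2. At an unadjusted p under 0.05, 6 of the 8 were higher, as were 3.61% of all probe sets. Without untreated replicate 2, the animal with the highest untreated levels, 1 of the 8 passed (NR4A3 set 2, limma adjusted p = 0.044). Leaving out the highest untreated animal raises the difference by construction. Since this contrast chose the genes, nothing is read from these counts. The median difference over the brightest sets was 2.34, beside 0.01 over all probe sets.

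At the low dose the same genes did not separate from untreated animals. Low dose minus untreated was 1.13 ± 0.83 for NR4A3, 0.52 ± 0.60 for NR4A2, 0.39 ± 0.35 for KLF4, 0.17 ± 0.44 for FOSL1 and -0.75 ± 0.61 for FOS (SE, brightest sets). The limma adjusted p was 0.998 for each. The 95% intervals reached from -0.76 to 3.02 for NR4A3, from -0.84 to 1.88 for NR4A2 and from -0.40 to 1.19 for KLF4. They ran from -0.82 to 1.17 for FOSL1 and from -2.15 to 0.65 for FOS. Leaving out 1 animal moved the differences to between 0.28 and 2.12 for NR4A3, 0.12 and 1.21 for NR4A2, 0.17 and 0.77 for KLF4, -0.24 and 0.59 for FOSL1 and -1.35 and -0.13 for FOS. The lowest value came without untreated replicate 3 for NR4A3, without low-dose replicate 3 for NR4A2 and without low-dose replicate 1 for the other 3 genes. The highest came without untreated replicate 2 for NR4A3 and FOSL1 and without low-dose replicate 2 for NR4A2, KLF4 and FOS. A difference of 1 lay within each 95% interval except that of FOS, and a difference of -1 lay within the interval of FOS alone.

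Over all 8 probe sets at the low dose, 6 had a higher mean (52% of all 23999), 1 was higher by at least 1 (0.217%) and none was free of overlap (5.23%). None passed in limma after adjustment, and none of the 23999 did (0%). None of the 8 had an unadjusted p under 0.05 either, against 2.77% of all probe sets that were higher at that level. Without untreated replicate 2, or without low-dose replicate 2, 2 of the 8 were free of overlap. The mean difference over the brightest sets was 0.29, with 0.82 without untreated replicate 2, 0.80 without low-dose replicate 2, -0.10 without low-dose replicate 1 and -0.01 without untreated replicate 3. The median difference over the 5 brightest sets was 0.39.

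**Figure D2:**
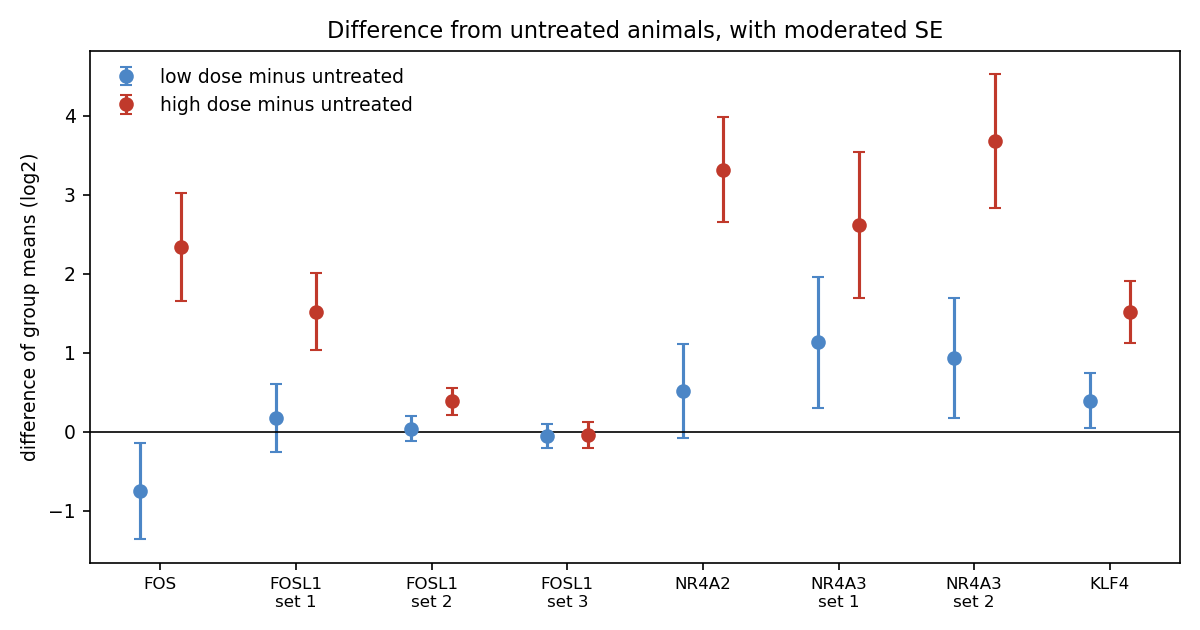
Difference of group means (log2, vertical axis) with the moderated SE as error bar for low dose minus untreated and high dose minus untreated, on each of the 8 probe sets. Both contrasts use the same 3 untreated animals; the high-dose differences of NR4A2, NR4A3, FOS, KLF4 and FOSL1 set 1 run from 1.52 to 3.68, while the low-dose differences run from -0.75 to 1.13.

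Between the doses, all 5 genes were higher at the high dose. High minus low dose was 3.09 ± 0.68 for FOS, 2.79 ± 0.67 for NR4A2, 1.48 ± 0.93 for NR4A3, 1.35 ± 0.49 for FOSL1 and 1.12 ± 0.39 for KLF4 (SE). The second NR4A3 set gave 2.75 ± 0.85, and the dimmer FOSL1 sets gave 0.35 ± 0.17 and 0.01 ± 0.17. All 8 sets had a higher mean (51.1% of all probe sets), 6 were higher by at least 1 (0.492%) and 7 did not overlap (13.2%). None of the 8 passed in limma, the smallest adjusted p being 0.245 for FOS, while 6 of all 23999 passed (0.025%; 0 to 7 when 1 animal was left out). At an unadjusted p under 0.05, 5 of the 8 were higher, as were 4.38% of all probe sets. The high-dose arrays are those of the contrast that chose the genes.

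With both doses averaged against untreated, 7 of the 8 sets had a higher mean (53.3%), 3 were higher by at least 1 (0.279%) and none was free of overlap (1.61%; 2 sets without untreated replicate 2 or without low-dose replicate 2). None passed in limma after adjustment (0% of all probe sets), and 4 were higher at an unadjusted p under 0.05 (2.43%). The high-dose and untreated arrays are those of the contrast that chose the genes, so nothing is read from these counts. NR4A2 was at 1.92 ± 0.54, NR4A3 at 1.88 ± 0.75, KLF4 at 0.96 ± 0.32, FOSL1 at 0.85 ± 0.39 and FOS at 0.79 ± 0.55 (SE).

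The spread of these genes between animals given the same treatment was large. The SD within groups was 1.31 for NR4A3, 0.97 for FOS, 0.94 for NR4A2, 0.68 for FOSL1 and 0.54 for KLF4 on the brightest sets, against a median of 0.17 over all probe sets. These values exceeded those of 96.6% of all probe sets for KLF4 and of 99.9% for NR4A3, with the other 3 between them. The dimmer FOSL1 sets, at 0.20 and 0.19, stood at 62.0% and 56.4%. Among only the probe sets brighter than the median, the median SD was 0.20. There KLF4 stood at 94.8%, NR4A3 at 99.8% and FOSL1 set 2 at 52.1%.

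**Figure D3:**
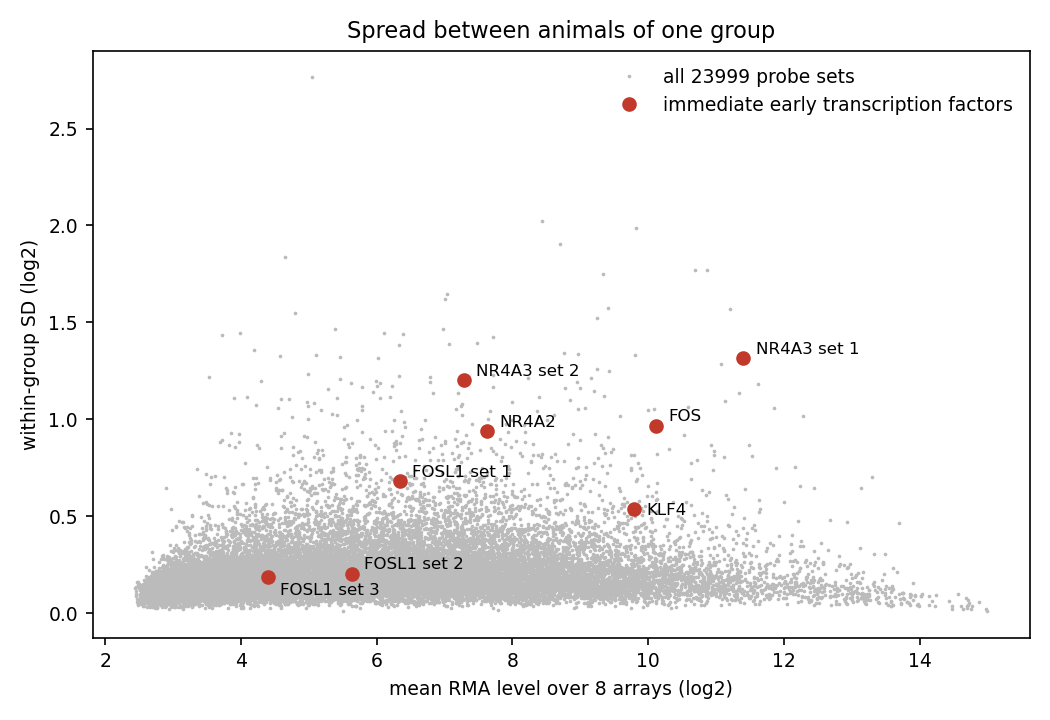
Within-group SD (log2, vertical axis) against the mean RMA level over 8 arrays (log2, horizontal axis) for all 23999 probe sets, with the 8 sets of the 5 genes in red. The brightest sets of all 5 genes lie above an SD of 0.50, while FOSL1 sets 2 and 3 lie within the main band.

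The 5 genes moved together within the groups. Untreated replicate 2 was above its group's mean for all 5, and untreated replicates 1 and 3 were below it for all 5. Among low-dose animals, replicate 1 was above the mean for 5 of 5, replicate 3 for 4 of 5 and replicate 2 for 0 of 5. High-dose replicate 1 was above its partner for all 5. Over all probe sets the share above the group mean was near even on each array, between 43.7% in low-dose replicate 2 and 55.7% in low-dose replicate 3.

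Averaged over the 5 genes after each was centred on its mean over 8 arrays, the animals stood at -1.11, 0.37 and -1.29 (untreated), 0.40, -1.40 and -0.15 (low dose) and 1.79 and 1.38 (high dose). Low-dose replicate 2 was the lowest of all animals for FOS, FOSL1, NR4A2 and KLF4, and untreated replicate 3 for NR4A3. Thus the lowest animal of this profile had received GGF2, while an untreated animal ranked among the 4 highest.

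The pig numbers in the labels fall in neighbouring pairs for 6 of the 8 animals, and the labels do not say whether a pair shared a surgery, a day or a shipment. Untreated replicates 1 and 3 are neighbours, and so are the 2 high-dose animals. Low-dose replicate 1 and untreated replicate 2, at 0.40 and 0.37 in the averaged profile, are the only neighbours in different groups. Low-dose replicate 1 minus untreated replicate 2 was -0.54 for FOS, 0.16 for FOSL1, 0.23 for NR4A2, 0.04 for NR4A3 and 0.26 for KLF4, a single pair with no error. No neighbouring pair held a high-dose animal together with one of another group, so for the high dose the numbers and the treatment cannot be told apart.

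Likeness between genes was measured as the root mean square difference of centred log2 levels over the 8 arrays, where 0 means equal profiles. The levels were not scaled, so genes with the same order of animals but changes of unlike size also lie apart. FOSL1 and KLF4 were the closest pair of the 5 (0.27) and FOS and NR4A3 the most distant (1.10). KLF4 lay 0.89 from FOS, 0.85 from NR4A3 and 0.82 from NR4A2. Each of these was farther than the median of other named genes from KLF4 (0.75). The gene most like the averaged profile was IER5 (0.21), an early gene that responds to stress and growth factors, followed by IFRD1 (0.24), a transcriptional coregulator, SERPINB2 (0.36), a plasminogen activator inhibitor, MYC (0.37) and FAM46C (0.39). The median of all named genes was 1.14. IER5 stood at 8.68, 10.29 and 8.79 in untreated animals, 10.14, 8.85 and 9.88 in low-dose animals and 11.34 and 11.35 in high-dose animals. Both high-dose animals lay above the other 6, and low-dose and untreated animals overlapped. IER5 was picked for its likeness to the averaged profile on these same arrays, so this order is no separate observation.

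Each gene also had its own nearest neighbours. FOS was closest to BTG2 (0.50), an antiproliferative early gene, and PLK2 (0.54), a polo-like kinase. FOSL1 was closest to BAG3 (0.20), a chaperone partner in muscle, LMNA (0.23), which encodes nuclear lamins, and HBEGF (0.24), an EGF-family growth factor. KLF4 was closest to HSPA13 (0.23) and HBEGF (0.25). NR4A2 was closest to IFRD1 (0.55) and MYC (0.62), and NR4A3 to MYC (0.50), EGR1 (0.51) and IFRD1 (0.52). The median over all named genes lay between 0.75, for KLF4, and 1.53, for NR4A2.

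The partners and relatives that could complete AP-1 were measured only in part: 4 of 14 listed genes had a probe set naming them alone. FOSB, JUNB and JUND, among others, are not analysed here. All 4 had a higher mean at the high dose than in untreated animals, none passed in limma, and 1 (ATF3) had an unadjusted p under 0.05. Over all probe sets, 53.3% had a higher mean and 3.61% were higher at that p. This list and those below were chosen with earlier results of these data known, so nothing is read from their counts. ATF3, a stress-induced factor of the ATF family, was at 13.12 and 13.05 in high-dose animals, against 8.55, 11.37 and 8.59 in untreated animals, a difference of 3.58 ± 1.24 (SE). In low-dose animals ATF3 was at 11.63, 7.64 and 11.57, so that low-dose replicate 2 was again the lowest.

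JUN, the main partner of FOS, had a smaller difference and a different order of animals. It was at 11.21 and 11.35 in high-dose animals, against 10.92, 9.57 and 10.90 in untreated animals, a difference of 0.82 ± 0.40 (SE). Untreated replicate 2, the highest untreated animal for each of the 5 genes, was the lowest untreated animal for JUN. FOSL2, a further Fos-family member, differed by 1.72 ± 0.86 with overlap, and ATF4, a factor of the stress response, by 0.47 ± 0.26. The median over the 4 was 1.27, beside 0.02 over the 6765 named genes.

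Of 17 other early transcription factors listed, 11 were measured, 10 of them with a higher mean at the high dose and none passing in limma. At an unadjusted p under 0.05, 3 were higher, beside 53.3% with a higher mean and 3.61% at that p over all probe sets. The growth regulator MYC differed by 2.29 ± 0.77, the zinc-finger factors EGR1 and EGR4 by 1.94 ± 0.75 and 1.44 ± 0.72, and NFIL3, a basic leucine zipper repressor, by 1.08 ± 0.38 (SE). Dimmer EGR1 sets gave 1.03 and 3.27. The median over the 11 was 0.22 (1.04 when dim probe sets were left out), with KLF9 at -0.49, CEBPB at 0.02 and HES1 at 0.08. NR4A1, the third NR4A receptor, and KLF6 are not analysed here.

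Early response effectors, which early stimuli also switch on but which mostly act outside transcription, included 14 measured genes of 18. Of these, 13 had a higher mean at the high dose, 0 passed in limma and 8 were higher at an unadjusted p under 0.05, with a median of 1.15. Over all probe sets these shares were 53.3% and 3.61%. PTGS2, the gene without a higher mean, was below the lower quartile on every array. IER3, which modulates survival signalling, differed by 2.26 ± 1.10, IER5 by 2.09 ± 0.51, BTG2 by 2.03 ± 0.53 and GADD45B, a stress-response gene, by 1.79 ± 0.52 (SE). Untreated replicate 2 was above its group's mean for 14 of 14 of these genes, low-dose replicate 1 for 13 of 14 and low-dose replicate 2 for 0 of 14. For FOS, FOSL1, NR4A2, NR4A3 and KLF4 the same 3 animals had 5 of 5, 5 of 5 and 0 of 5 above the mean.

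**Figure D4:**
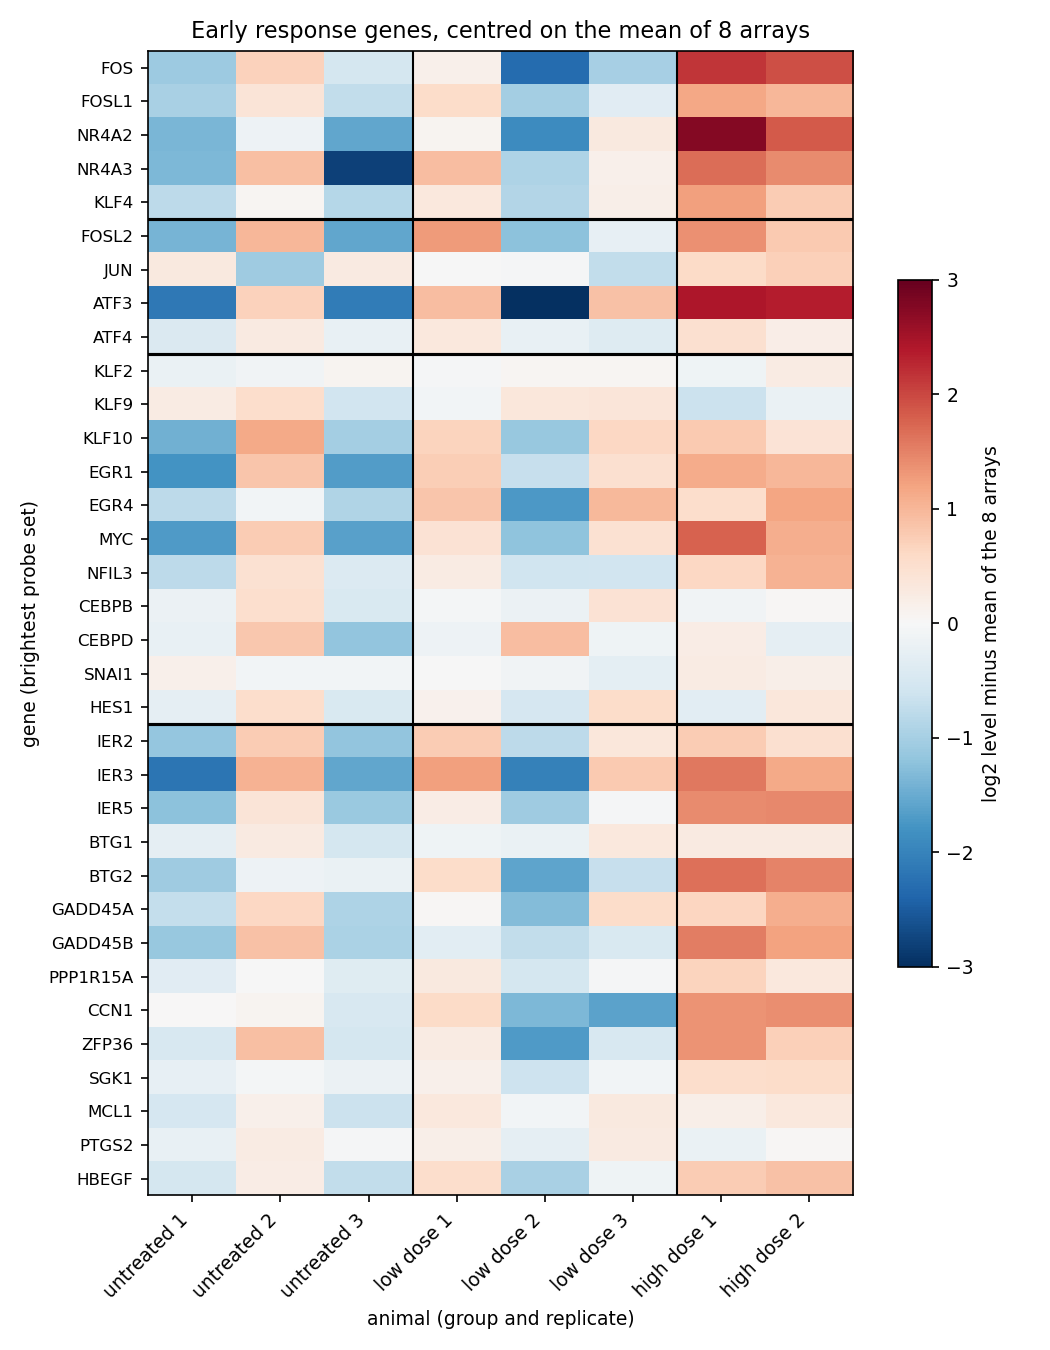
Log2 level minus the mean of the 8 arrays (colour) for FOS, FOSL1, NR4A2, NR4A3 and KLF4 (top block), AP-1 partners, other early transcription factors and early response effectors (lower blocks), 1 column for each animal. Both high-dose columns are red for all 5 genes of the top block, while low-dose replicate 1 and untreated replicate 2 lie above their groups' means for 13 and 14 of the 14 effectors.

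The kinases and promoter-binding factors that act before these genes had a median RNA difference near 0. Of 29 listed, 11 were measured, 7 with a higher mean at the high dose, and the median was 0.05. None passed in limma, and 1 was higher at an unadjusted p under 0.05 (3.61% of all probe sets). That gene was CREM, a cAMP-responsive factor with an inducible repressor form, at 1.10 ± 0.42 (SE) on its brightest set and 1.98, 0.69 and 0.60 on others. The kinases MAPK9 and RPS6KA1 were at -0.22 ± 0.17 and -0.20 ± 0.21 and the factor MEF2D at 0.21 ± 0.13. These kinases act through phosphorylation, which RNA arrays do not measure, and SRF and ELK1, which bind the FOS promoter, are not analysed here.

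The inhibitors that switch MAPK signalling off again were measured for 3 of 15 genes. None passed in limma, and only DUSP1, a phosphatase and itself an immediate early gene, was higher at an unadjusted p under 0.05 (3.61% of all probe sets). DUSP1 was at 11.96 and 11.42 in high-dose animals, against 10.11, 11.01 and 10.95 in untreated animals, a difference of 1.00 ± 0.38 (SE). DUSP7 was at 0.34 ± 0.20 and DUSP6, a phosphatase of ERK, at 0.17 ± 0.17. The median of the 3 was 0.34, with 0.59 without high-dose replicate 1 and 0.10 without high-dose replicate 2.

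Genes known as AP-1 targets were measured for the most part. Of 16 listed, 12 were measured, 8 with a higher and 4 with a lower mean at the high dose, and the median was 0.15, or 0.06 without untreated replicate 1 and 0.10 without untreated replicate 3. None passed in limma and 1 was higher at an unadjusted p under 0.05 (3.61% of all probe sets). That gene was CCL2, a monocyte-attracting chemokine, which differed by 1.38 ± 0.50 (SE), with 8.14 in the lower high-dose animal against 7.78 in the highest untreated animal. HMOX1, heme oxygenase, was at 0.86 ± 0.53, EDN1, the endothelin precursor, at -0.47 ± 0.31 and VEGFA, a vascular growth factor, at -0.28 ± 0.14. For HMOX1 the high-dose animals stood at 8.18 and 6.23, the latter below untreated replicate 2 (7.04). Less bright VEGFA sets gave 0.22, 0.35 and -0.02. MMP1, MMP3, IL6 and CXCL8 were below the lower quartile on all 8 arrays.

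**Figure D5:**
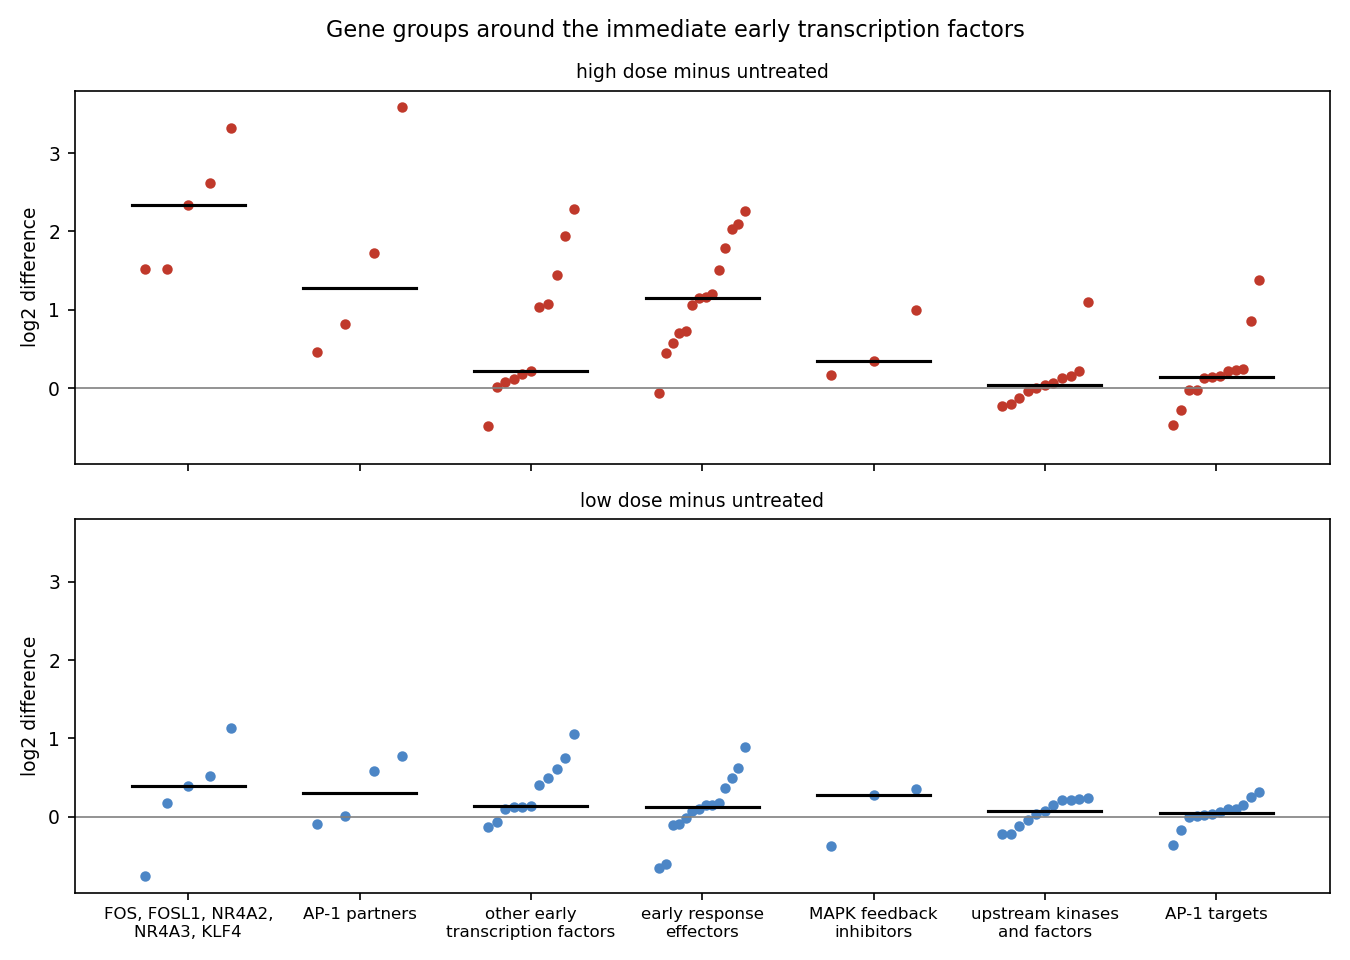
Difference of group means (log2, vertical axis) of each measured gene, on its brightest probe set, for high dose minus untreated (top) and low dose minus untreated (bottom); bars are medians of a gene group. The high-dose medians are 2.34 for the 5 genes, 1.27 for AP-1 partners, 0.22 for other early transcription factors, 1.15 for effectors, 0.34 for MAPK feedback inhibitors, 0.05 for upstream factors and 0.15 for AP-1 targets.

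At the low dose the medians were 0.30 for AP-1 partners, 0.14 for other early transcription factors, 0.12 for effectors, 0.28 for MAPK feedback inhibitors, 0.07 for upstream factors and 0.05 for AP-1 targets, with none passing in limma. At an unadjusted p under 0.05, 1 effector and 1 AP-1 target were higher, beside 2.77% of all probe sets, and 1 AP-1 target was lower (VEGFA, -0.37 ± 0.12). Less bright VEGFA sets gave 0.02, -0.17 and -0.05 for low dose minus untreated. Leaving out 1 animal moved the medians to between -0.14 and 0.81 for AP-1 partners, -0.06 and 0.43 for other early transcription factors, -0.04 and 0.41 for effectors and -0.02 and 0.17 for AP-1 targets, so their sign was not kept. The negative values came without low-dose replicate 1 for AP-1 partners and effectors and without untreated replicate 3 for the other early factors. AP-1 targets were negative without either of these animals or untreated replicate 1, and effectors also without low-dose replicate 3 (-0.01). Upstream factors ranged between 0.01 and 0.11, and MAPK feedback inhibitors between 0.16 and 0.38. The median over all named genes was -0.01.

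In bulk tissue, fewer cells of a type and less RNA per cell cannot be told apart, so markers of other cell types are set beside the 5 genes. Between high-dose and untreated animals the median difference was -0.59 over 8 of 10 fibroblast markers, -0.48 over 7 of 10 macrophage markers and -0.49 over 3 of 7 erythrocyte genes. Macrophage markers averaged 6.42 to 6.88 in untreated animals, 6.31 to 6.94 in low-dose animals and 5.93 to 6.12 in high-dose animals, so the high-dose range stood apart. It also did for erythrocyte genes, at 6.05 to 6.15, 6.00 to 6.11 and 5.78 to 5.80 in the same order. However, HBB, a globin gene, had a difference of 0.12, against -0.60 for ALAS2 and -0.49 for AHSP. AHSP stood at 3.71 and 3.28 in high-dose animals, below the lower quartiles taken as the limit of background. Fibroblast markers averaged 8.36 to 9.05 in untreated, 8.65 to 8.85 in low-dose and 7.98 to 8.36 in high-dose animals. They did not move as 1: 6 had a lower mean at the high dose, with POSTN at -2.46, and 2 a higher mean. Those 2 were COL3A1, at 0.83, and TCF21, at 0.13.

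The other marker medians were smaller: 0.05 for cardiomyocytes, -0.08 for endothelium (9 of 10 measured), 0.18 for smooth muscle (7 of 8), 0.11 for neutrophils (3 of 8), -0.02 for lymphocytes (7 of 10), 0.22 for mesothelium (4 of 7), -0.18 for adipocytes (4 of 6), -0.15 for Schwann cells (3 of 6) and -0.21 for mast cells (2 of 6). The neutrophil genes S100A8, S100A9 and S100A12 were on every array below the highest of the arrays' lower quartiles (3.80). Whether the makeup of the tissue had a part in the levels of FOS, FOSL1, NR4A2, NR4A3 and KLF4 was not tested.

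RNA quality was read from control transcripts as the level of the 3' probe set minus that of the 5' set, which widens as RNA degrades. The mean gap over 3 control transcripts was 2.93 to 3.36 in untreated animals, 3.28 to 3.78 in low-dose animals and 3.00 to 3.03 in high-dose animals. For actin it was 4.88 to 5.26, 5.48 to 6.04 and 4.92 to 5.18 in the same order, so the low-dose range stood above the others. The high-dose range of the mean gap lay within that of untreated animals and wholly below that of low-dose animals, so RNA quality moved with high against low dose. Within the low-dose group, replicate 1 had both the widest mean gap and the highest FOS, FOSL1, NR4A3 and KLF4 levels. Within the untreated group, replicate 3 had the widest mean gap (3.36) and the lowest NR4A2, NR4A3 and KLF4 levels, while replicate 2, the highest for all 5 genes, was at 3.03. The part of RNA quality in these levels was not tested.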

How the data were processed

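Total RNA of 8 animals was hybridised to Affymetrix porcine arrays, 1 for each animal. For 24123 probe sets the authors deposited RMA levels on the log2 scale, made with RMA and Partek 6.6 per the submitters' processing notes. No other setting is given in the sources used here. RMA equalises the arrays' distributions, so a change shared by most genes would be removed. Arrays carry no read depth, and their number limits the precision. After 124 control probe sets were left out, 23999 were tested. Symbols came from the platform annotation: 10069 probe sets had 1 symbol, 198 several and 13732 none, and only the first kind named a gene. No genome or sequence was used.

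All 8 arrays entered a single limma fit with 3 group means (limma 3.58.1, R 4.3.3; 5 residual and 3.50 prior degrees of freedom), with Benjamini-Hochberg adjustment within each contrast and a threshold of 0.05. The fit was tested on simulated data. The brightest probe set stood for a gene. From each gene list, up to 4 genes with the largest absolute high-dose difference were named, other named members being chosen after their values were seen. For each of the 5 genes and their mean, the 5 nearest genes by root mean square difference were ranked. The members and lists were chosen with earlier results of these data known. Alternatives were other variance priors, a filter on dim probe sets, 2 other scalings, fits of 2 groups, array weights, a threshold of 0.1, averaging the probe sets of a gene, and dropping each array in turn. Fits without the animals with neighbouring pig numbers in different groups (untreated replicate 2 and low-dose replicate 1), or with a covariate for them, were added after seeing the data.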

Additional observations from a re-analysis of the deposited data

How the results depend on the processing

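The mean difference over the brightest sets of the 5 genes kept its sign in 19 of 19 alternatives for high dose against untreated (2.26, range 1.95 to 2.79), for high against low dose (1.97, range 1.46 to 2.43) and for both doses against untreated (1.28, range 0.97 to 1.80). For low dose against untreated (0.29, range -0.10 to 0.82) it did so in 17 of 19, the exceptions being without low-dose replicate 1 and without untreated replicate 3. Other variance priors, the filter on dim probe sets, fits of 2 groups and the threshold of 0.1 could not change these differences. The genes were chosen on high dose against untreated, so nothing is read from the sign kept in contrasts that hold high-dose animals. With the mean of its 3 probe sets in place of the brightest, FOSL1 was at 0.62 for high dose against untreated and 0.57 for high against low dose. No member probe set passed in limma for low dose or both doses against untreated under any of the 19 alternatives. For high dose against untreated the count passing was 0 in the fit of all arrays and 0 to 1 when 1 animal was left out. In settings chosen after seeing the data, it was 2 without untreated replicate 2 and low-dose replicate 1 (FOSL1 set 1 and NR4A3 set 2) and 3 with a covariate for them (these and FOS). For high against low dose it was 2 with the covariate (FOS and FOSL1 set 1). Both animals had high levels of these genes within their groups, so these settings remove or fit high values by construction.

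Over all 23999 probe sets, the count passing for high dose against untreated was 0 in the fit of all arrays, 4 with an intensity trend, 7 with a robust prior, 3 with median centring, 9 after renewed quantile normalization, 2 with these groups alone, 13 with array weights, 10 at an adjusted p under 0.1, 0 to 19 with 1 animal left out, 55 without the 2 animals and 70 with the covariate. For high against low dose, 6 passed, with a range of 0 to 25. The cause was not tested. No paired analysis was possible because the groups hold different animals with 1 array each. The labels give no replicate numbers, so those used here only name the animals of a group. With 2 high-dose arrays, leaving out either leaves a lone animal that is assumed to vary like the other groups.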
